A study of Homo sapiens with 5 samples.

Results

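Heat shock chaperones of the cytosol and the mitochondria were examined in HEK 293T cells, a human embryonic kidney line with an integrated SV40 large T antigen, after exposure to 5-aza-2'-deoxycytidine (5-aza-CdR). The set was chosen by gene name and function, with earlier results of these data known, so its shares are descriptions only. It comprised 44 genes: 10 of the HSP70 class, 9 of the HSP40 class, 3 of the HSP90 class, 2 small heat shock proteins, 9 chaperonin subunits, 9 co-chaperones and 2 heat shock factors. Of these, 38 had an entry under their own symbol among the 20220 RefSeq gene entries used. The 3 groups were cells given 1 µM drug for 3 days (treated, 2 libraries), cells given the same treatment and then kept for 30 days without drug (recovery, 1 library), and cells that never received the drug (control, 2 libraries). Once incorporated into replicating DNA, 5-aza-CdR binds DNA methyltransferases covalently, and methylation is lost as cells divide.

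The authors deposited 1 FPKM value per gene and group, in which the libraries of a group were already combined. FPKM counts fragments scaled for transcript length and for sequencing depth, so levels of different genes may be compared. No spread between replicates can be shown, and the only test per gene is the q-value, a p-value corrected over many genes, against control in the authors' deposited table. VIM and KRT18, both expressed by this line, stood at 181 and 418 FPKM in treated, 246 and 214 FPKM in recovery and 316 and 231 FPKM in control cells, whereas IRS4, PAX2 and NEFM, also named for this line, were listed at 0 in control cells. IRS4 was at 2.13 FPKM in treated and 28.0 FPKM in recovery cells and was called in both (q = 0.0147 for each in the authors' deposited table). NEFM was at 4.79 FPKM in treated cells, where it was called (q = 0.0147 in the authors' deposited table), and at 0.0924 FPKM in recovery, and PAX2 was at 0.146 FPKM in treated cells and listed at 0 in recovery. The part of these differences in the results was not tested. Markers of fibroblasts, blood and endothelium (14 measured) summed to 12.2 FPKM in treated, 12.2 FPKM in recovery and 8.24 FPKM in control cells, and 4, 7 and 9 of them were listed at 0 in those groups; their part in the results was not tested. In RNA from a whole culture, a change in every cell and a change in the share of cells cannot be told apart. The commonest ratio between group values, taken as 1 fragment against 1 fragment, was 0.757 for treated over control, shared by 86 of 12366 genes, and 1.53 for recovery over control, shared by 107 of 12095 genes. The next commonest ratio was shared by 76 genes in each comparison, so the estimate is rough, most of all for treated cells. On that estimate, the fragments behind the values numbered 1.32 times the control in treated cells and 0.652 times the control in recovery. Low recovery values would then be the least precise. Entries listed at 0 had another order, with 5376 in treated, 6547 in recovery and 7562 in control cells. Ratios over low control values are imprecise as well.

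Molecular chaperones bind unfolded protein and keep it from aggregating while it folds. HSP70 proteins do this in cycles of ATP hydrolysis that HSP40 (J-domain) proteins start and nucleotide exchange factors reset. HSP90 proteins act later, on kinases, receptors and other clients handed over by co-chaperones, and the ring-shaped chaperonin TRiC folds actin and tubulin. Under stress, the transcription factor HSF1 forms trimers and binds heat shock elements, runs of inverted GAA units in the promoters of inducible chaperone genes.

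Of the 38 chaperone genes, 2 were called higher in treated than in control cells and 0 were called lower at q under 0.05 in the authors' deposited table. The called genes were HSPA1B, a stress-inducible HSP70, and DNAJA1, a cytosolic HSP40. All 38 had a q under 1, which is the sign used here for a gene that was tested. Among all 11256 genes with q under 1, 1.08% were called higher and 0.275% lower, against 5.26% and 0% of the chaperones. By size, 10 chaperones (26.3%) lay at least 2-fold higher in treated cells and 1 (2.63%) at least 2-fold lower. The same shares were 17.6% and 11.4% of the 12396 genes at 1 FPKM or more in either group. Ratios of low values are the least precise, so the count was repeated at 10 FPKM or more in either group. That level was chosen after the data were seen. There 7 of 34 chaperones (20.6%) were at least 2-fold higher, of which HSPA1A and HSPA2 reached 10 FPKM only in treated cells, and 1 (2.94%) was at least 2-fold lower, beside 7.53% and 7.50% of 6997 genes.

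**Figure D1:**
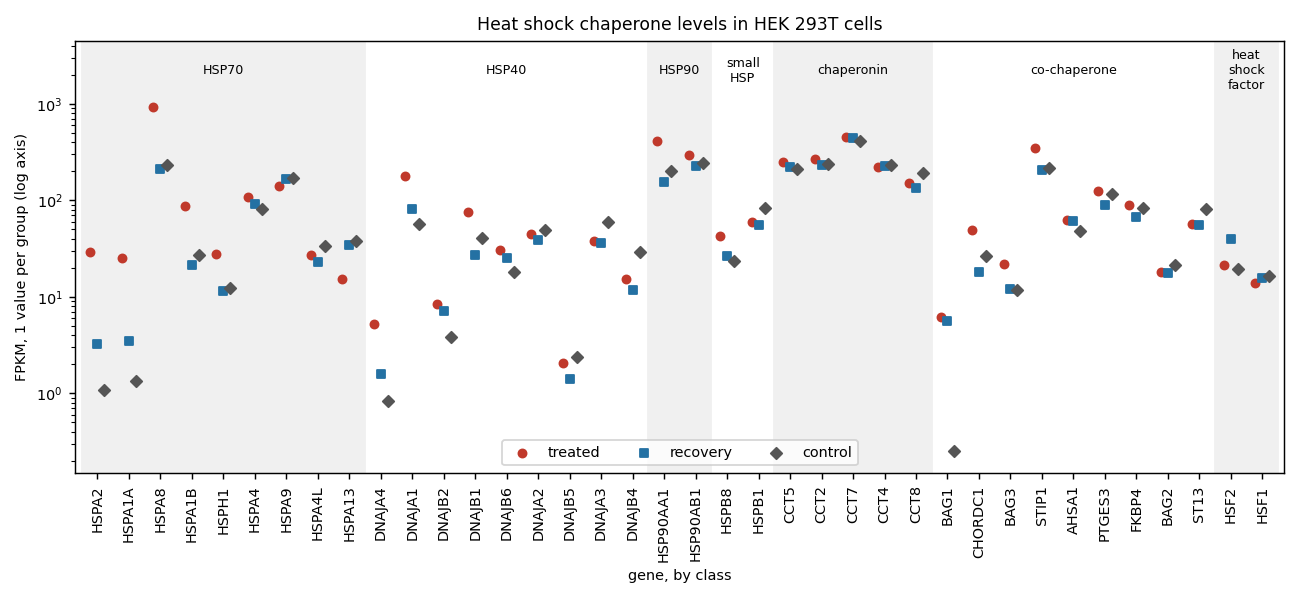
FPKM (log axis) of the 38 chaperone genes with an entry, by class, in treated (circles), recovery (squares) and control cells (diamonds), 1 deposited value per group and so no error bar. Treated values stand apart above both others for HSPA8, HSPA1B and DNAJA1, while the 3 values of each chaperonin subunit lie close together.

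Of the HSP70 class, which holds inducible and constitutive forms, the called gene was HSPA1B. The gene (chromosome 6, 31795512 to 31798031, hg19) was at 86.5 FPKM in treated, 21.5 FPKM in recovery and 27.1 FPKM in control cells. It rose 3.19-fold in treated cells (q = 0.0147 in the authors' deposited table), while its recovery level was 0.794 times that of control (q = 0.981 in the same authors' deposited table). HSPA1A, which encodes the same inducible protein next to it, was at 25.3 FPKM in treated, 3.44 FPKM in recovery and 1.33 FPKM in control cells. Its treated level was 19.0 times that of control without a call (q = 0.530 in the authors' deposited table). Both copies are nearly identical and how fragments were shared between them is not given in the sources used here, so each single value is uncertain. Summed, the pair was at 112 FPKM in treated, 25.0 FPKM in recovery and 28.5 FPKM in control cells, a treated level 3.93 times that of control, and HSPA1A made up 22.6% of the treated, 13.8% of the recovery and 4.67% of the control sum.

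HSPA8 (chromosome 11, 122928200 to 122933043), the constitutive HSP70 that also strips clathrin from vesicles, was the most abundant chaperone measured in treated cells. It was at 936 FPKM in treated, 213 FPKM in recovery and 230 FPKM in control cells. The treated level was 4.07 times that of control, a difference that missed the threshold (q = 0.0814 in the authors' deposited table). Among the 6956 genes above 0 in control and at 10 FPKM or more in treated or control cells, the treated over control ratio of HSPA8 ranked 123, that of DNAJA1 181 and that of HSPA1B 183.

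The promoters of these 3 genes are shown because all 3 had higher levels in treated than in control cells and because inducible HSP70 promoters are the classical targets of HSF1. They are RefSeq windows on GRCh38.p14, from 250 bases before to 50 bases after the transcript start, printed 5′ to 3′ on the gene's strand. Capitals mark heat shock elements, found as GAANNTTC or TTCNNGAA (2 units, each its own reverse complement) or as GAANNTTCNNGAA or TTCNNGAANNTTC (3 units, each the reverse complement of the other). A 3-unit match contains 2 overlapping 2-unit matches.
HSPA1A, chr6:31815293-31815592, plus strand: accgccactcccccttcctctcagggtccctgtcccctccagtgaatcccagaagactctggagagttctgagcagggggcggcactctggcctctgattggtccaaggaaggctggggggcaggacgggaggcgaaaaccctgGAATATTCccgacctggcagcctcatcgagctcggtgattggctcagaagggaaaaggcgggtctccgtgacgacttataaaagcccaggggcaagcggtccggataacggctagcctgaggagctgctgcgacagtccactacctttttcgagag
HSPA1B, chr6:31827488-31827787, plus strand: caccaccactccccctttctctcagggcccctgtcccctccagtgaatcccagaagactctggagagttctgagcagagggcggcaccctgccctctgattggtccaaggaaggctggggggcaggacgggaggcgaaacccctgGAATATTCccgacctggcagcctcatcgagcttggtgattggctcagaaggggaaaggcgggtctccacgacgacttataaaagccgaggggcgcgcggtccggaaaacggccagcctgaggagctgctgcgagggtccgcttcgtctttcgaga
HSPA8, chr11:123062087-123062386, minus strand: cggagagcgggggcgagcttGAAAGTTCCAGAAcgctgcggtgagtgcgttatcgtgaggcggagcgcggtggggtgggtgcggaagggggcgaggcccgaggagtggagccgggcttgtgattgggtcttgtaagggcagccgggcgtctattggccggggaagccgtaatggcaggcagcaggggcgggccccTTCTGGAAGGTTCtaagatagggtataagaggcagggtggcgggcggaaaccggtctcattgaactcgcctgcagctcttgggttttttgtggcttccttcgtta
HSPA1A and HSPA1B carried 1 element each, with the same letters GAATATTC, starting 106 bases before the HSPA1A start and 105 bases before the HSPA1B start. Shifted by 1 base, the windows of the pair had the same base at 277 of 299 positions (92.6%). HSPA8 carried a pair of 3-unit elements, GAAAGTTCCAGAA 230 bases and TTCTGGAAGGTTC 55 bases before its start.

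The other HSP70 genes did not share 1 direction. HSPA2, known for its high expression in testis, was at 29.2 FPKM in treated, 3.20 FPKM in recovery and 1.08 FPKM in control cells, a treated level 27.0 times that of control with no call (q = 0.484 in the authors' deposited table). HSPH1, a large HSP70 relative (HSP110) that exchanges nucleotide on HSP70, was at 27.9, 11.5 and 12.3 FPKM in treated, recovery and control cells, or 2.26 times control when treated (q = 0.334 in the authors' deposited table). HSPA13, a microsome-associated HSP70 relative, had the opposite sign, with 15.4 FPKM in treated, 34.2 FPKM in recovery and 37.5 FPKM in control cells (q = 0.250 for treated in the authors' deposited table). It was the only chaperone of the 38 that was at least 2-fold lower in treated cells. HSPA4 and HSPA4L, 2 further HSP110 relatives, and HSPA9, the mitochondrial HSP70 (mortalin), had treated levels 0.824 to 1.32 times those of control. Across the 9 HSP70 genes measured, 6 were higher and 3 lower in treated cells, with a median log2 change of 1.12 on the log2(FPKM + 1) scale. Their FPKM summed to 1395 in treated, 566 in recovery and 592 in control cells, or 2.36 times control when treated. HSPA8 carried most of that difference: the other 8 genes summed to 458 FPKM in treated, 353 FPKM in recovery and 362 FPKM in control cells, or 1.27 times control when treated.

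Among the HSP40 genes, which bring clients to HSP70 and trigger its ATPase, DNAJA1 (chromosome 9, 33025209 to 33039062, hg19) was the called gene. It was at 180 FPKM in treated, 80.2 FPKM in recovery and 56.2 FPKM in control cells. The gene rose 3.21-fold in treated cells (q = 0.0147 in the authors' deposited table), and in recovery its level was 1.43 times that of control (q = 0.939 in the authors' deposited table). Its promoter window is shown for comparison with HSPA8, since it also holds a 3-unit element.
DNAJA1, chr9:33025023-33025322, plus strand: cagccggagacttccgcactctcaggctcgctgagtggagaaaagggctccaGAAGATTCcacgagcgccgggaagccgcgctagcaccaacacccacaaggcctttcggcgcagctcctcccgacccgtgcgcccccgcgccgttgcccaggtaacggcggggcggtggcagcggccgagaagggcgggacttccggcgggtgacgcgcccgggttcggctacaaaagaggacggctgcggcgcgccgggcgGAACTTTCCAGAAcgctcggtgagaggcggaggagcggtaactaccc
The 3-unit element of DNAJA1, GAACTTTCCAGAA, starts at base 4 of the transcript, and a 2-unit element, GAAGATTC, starts 198 bases before the transcript start.

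DNAJB1, the HSP40 partner of inducible HSP70, was at 75.0 FPKM in treated, 27.0 FPKM in recovery and 40.4 FPKM in control cells. The treated level was 1.86 times that of control (q = 0.758 in the authors' deposited table), and the recovery level 0.359 times that of treated cells. DNAJA4 was at 5.21, 1.59 and 0.831 FPKM in treated, recovery and control cells. DNAJB2, best known from neurons, was at 8.42, 7.04 and 3.86 FPKM in treated, recovery and control cells. DNAJA4 and DNAJB2 were thus 6.27 and 2.18 times control when treated, at low levels and without a call (q = 0.861 and 0.939 in the authors' deposited table). DNAJB4 had the opposite sign, with 15.1 FPKM in treated, 11.8 FPKM in recovery and 28.9 FPKM in control cells. Its recovery level was 0.410 times that of control, without a call (q = 0.651 in the authors' deposited table). The mitochondrial HSP40 DNAJA3 was at 38.0, 35.7 and 59.9 FPKM in treated, recovery and control cells, the highest control level of the class. DNAJA2, DNAJB5 and DNAJB6 had treated levels 0.861 to 1.71 times those of control. Of the 9 HSP40 genes, 5 were higher and 4 lower in treated cells (median log2 change 0.74).

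**Figure D2:**
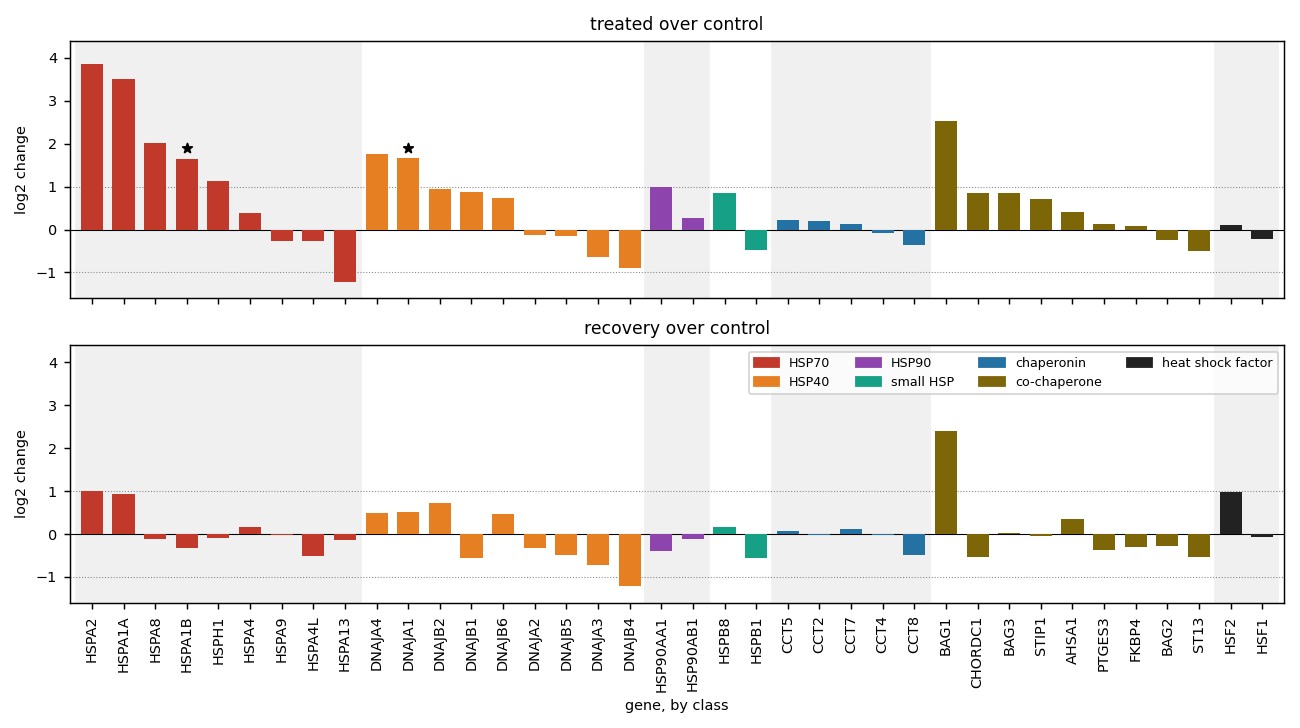
Difference of log2(FPKM + 1) from control for the 38 chaperone genes, ordered by class and by the treated value, in treated cells (upper panel) and in recovery (lower panel). Stars mark the 2 genes called at q under 0.05, dotted lines mark changes of 1 and -1, and both panels use the same control values; in recovery BAG1 has the tallest bar, at 2.41.

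Of the HSP90 genes, the inducible form had the larger ratio, and the difference between the forms was not tested. HSP90AA1, the inducible cytosolic HSP90, was at 408 FPKM in treated, 154 FPKM in recovery and 203 FPKM in control cells, or 2.01 times control when treated, with no call (q = 0.784 in the authors' deposited table). HSP90AB1, the constitutive form, was at 296 FPKM in treated, 226 FPKM in recovery and 245 FPKM in control cells, or 1.21 times control (q = 0.988 in the authors' deposited table). HSP90AA1 was thus below HSP90AB1 in recovery and control cells and above it in treated cells. RefSeq gives HSP90AA1 more than 1 start, and the window with elements is shown as that of the inducible HSP90. The other window (chr14:102139700-102139999) held 0 elements. The measured entry spans 59012 bases, 1.00 times the gene length, so its level cannot be tied to the window shown.
HSP90AA1, chr14:102086995-102087294, minus strand: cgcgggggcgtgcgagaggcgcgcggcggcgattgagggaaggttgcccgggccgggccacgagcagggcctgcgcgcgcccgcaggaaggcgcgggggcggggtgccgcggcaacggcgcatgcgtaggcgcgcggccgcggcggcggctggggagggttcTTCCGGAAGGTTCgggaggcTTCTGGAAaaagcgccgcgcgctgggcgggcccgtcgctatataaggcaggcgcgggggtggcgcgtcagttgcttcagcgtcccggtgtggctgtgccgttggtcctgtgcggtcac
Its 3-unit element TTCCGGAAGGTTC starts 88 bases before the transcript start. One HSP90AB1 window held 2 such 3-unit elements, and its treated level was the 1.21 times control given above.

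The small heat shock proteins, which hold unfolded proteins without ATP, had opposite signs. HSPB8, which works with BAG3 in selective autophagy, was at 42.7 FPKM in treated, 26.2 FPKM in recovery and 23.3 FPKM in control cells. HSPB1 (HSP27) was at 59.2 FPKM in treated, 55.4 FPKM in recovery and 82.2 FPKM in control cells. Neither was called (lowest q = 0.861 for treated in the authors' deposited table).

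The chaperonin subunits were among the most abundant chaperones in all 3 groups. CCT7, the most abundant of the 5 TRiC subunits measured, was at 451 FPKM in treated, 445 FPKM in recovery and 410 FPKM in control cells. Its small recovery difference from control turned from 0.12 as deposited to -0.05 under quantile scaling, on the log2(FPKM + 1) scale, so it has no settled direction. CCT2, CCT4, CCT5 and CCT8 had treated levels 0.785 to 1.18 times and recovery levels 0.706 to 1.06 times those of control. The 5 subunits summed to 1336 FPKM in treated, 1261 FPKM in recovery and 1280 FPKM in control cells, and their lowest q in the authors' deposited table was 0.939. A q that misses the threshold does not show that the levels were the same.

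Of the 9 co-chaperones, 7 were higher and 2 lower in treated cells, with a median log2 change of 0.40. BAG1, a nucleotide exchange factor of HSP70, was at 6.22 FPKM in treated, 5.64 FPKM in recovery and 0.252 FPKM in control cells. The treated level was 24.7 times and the recovery level 22.4 times a control value under 1 FPKM, and neither was called (q = 0.927 for each in the authors' deposited table). BAG3, the stress-inducible member of the same family, was at 21.9 FPKM in treated, 11.9 FPKM in recovery and 11.7 FPKM in control cells, or 1.87 times control when treated (q = 0.899 in the authors' deposited table). STIP1 (HOP), which joins HSP70 to HSP90, was at 350 FPKM in treated, 208 FPKM in recovery and 215 FPKM in control cells. CHORDC1, an HSP90-binding protein, was at 48.9 FPKM in treated, 18.0 FPKM in recovery and 26.4 FPKM in control cells, a treated level 1.85 times that of control (q = 0.743 in the authors' deposited table). AHSA1, the activator of the HSP90 ATPase, ST13 (HIP), PTGES3 (p23), FKBP4 (FKBP52) and BAG2 had treated levels 0.702 to 1.32 times those of control. The CHORDC1 window is shown because it held the most 2-unit matches of any chaperone promoter examined, 6, forming 3 overlapping 3-unit matches and 3 separate stretches.
CHORDC1, chr11:90223000-90223299, minus strand: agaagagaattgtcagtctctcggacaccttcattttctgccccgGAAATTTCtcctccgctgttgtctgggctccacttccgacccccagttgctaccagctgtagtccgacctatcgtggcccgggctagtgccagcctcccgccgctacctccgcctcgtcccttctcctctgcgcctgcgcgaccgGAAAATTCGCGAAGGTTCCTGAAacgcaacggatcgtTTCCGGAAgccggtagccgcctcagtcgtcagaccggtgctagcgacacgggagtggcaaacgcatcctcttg

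The heat shock factors, which control transcription of many of these genes, lay near their control levels in treated cells. HSF1 was at 14.0 FPKM in treated, 15.6 FPKM in recovery and 16.5 FPKM in control cells; its entry spans 1.53 times the length of the gene, so another gene may share it. HSF2, a related factor, was at 21.2 FPKM in treated, 39.8 FPKM in recovery and 19.6 FPKM in control cells, or 2.04 times control in recovery (q = 0.670 in the authors' deposited table). These are RNA levels, and HSF1 is known to be controlled mainly as a protein.

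**Figure D3:**
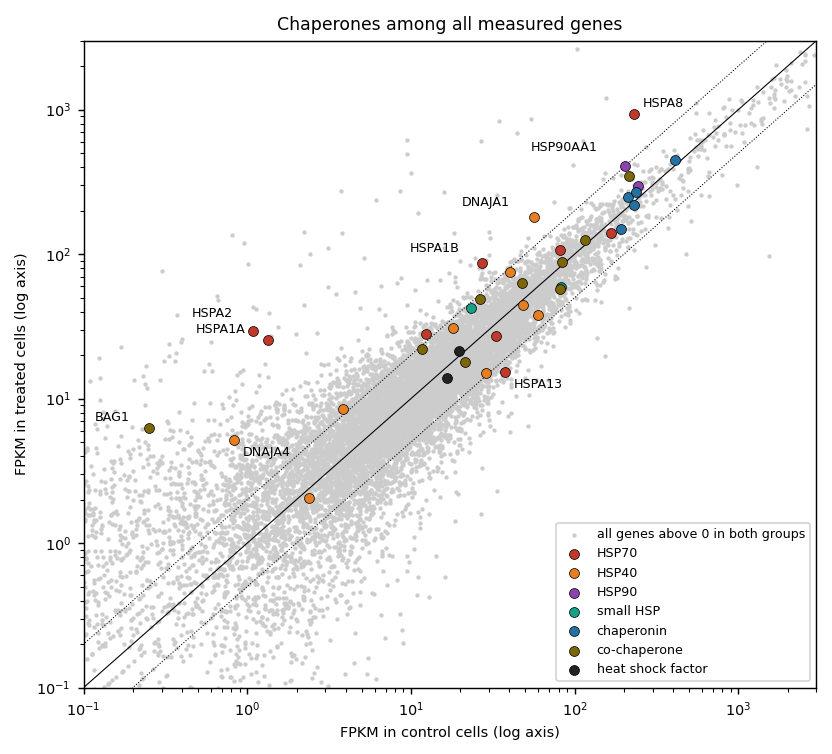
FPKM in treated cells (vertical, log axis) against FPKM in control cells (horizontal, log axis) for all genes above 0 in both groups (grey) and for the chaperones, coloured by class. The solid line marks equal levels and the dotted lines a 2-fold difference; HSPA8 (936 FPKM in treated, 230 FPKM in control cells) and DNAJA1 (180 FPKM in treated, 56.2 FPKM in control cells) stand above the band of genes of like level, and the chaperonin subunits lie near the line.

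Over the 38 genes, 25 were higher and 13 lower in treated than in control cells, with a median log2 change of 0.25 (quartiles -0.21 and 0.93, on the log2(FPKM + 1) scale). Among the 12712 genes whose mean reached 0.5 FPKM the median was 0.01 (quartiles -0.42 and 0.52), and among the 6338 genes whose mean reached 10 FPKM it was -0.05. Chaperones with a control level under 2 FPKM (BAG1, DNAJA4, HSPA2 and HSPA1A) hold the 4 largest ratios. Without these genes, a check chosen after the data were seen, the median of the chaperones was 0.16.

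The next question was whether these levels lasted after the drug was withdrawn. In recovery, 0 of the 38 chaperones were called higher and 0 lower against control at q under 0.05 in the authors' deposited table, where 0.895% and 0.447% of 11174 genes with q under 1 were called. DNAJA4 had a q of 1 there, and the lowest q of the 38 was 0.651, for DNAJB4, in the authors' deposited table. The recovery values rest on 1 library, and both comparisons with control use the same control values. By size, 4 chaperones (10.5%) were at least 2-fold higher in recovery than in control: BAG1, HSPA2, HSPA1A and HSF2. DNAJB4 was the 1 chaperone (2.63%) at least 2-fold lower. The same shares of 12195 genes were 15.9% and 9.92%. Both chaperone counts are small, and their distance from the shares of all genes was not tested. The median log2 change was -0.09 for the chaperones and 0.00 for all genes. Of the higher ones only HSF2 was at 10 FPKM or more in either group. HSPA2 was at 2.96 times and HSPA1A at 2.59 times the control level. The single HSPA1A value is uncertain, as given above. Summed with HSPA1B, the pair was at 25.0 FPKM in recovery and 28.5 FPKM in control cells, or 0.877 times control.

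Set directly against treated cells, 10 chaperones (26.3%) were at least 2-fold lower in recovery, beside 11.0% of 12486 genes, and 1 (2.63%) was at least 2-fold higher, beside 9.42%. At 10 FPKM or more in either group, 9 of 34 chaperones (26.5%) were at least 2-fold lower, beside 4.07% of 6881 genes. This is the level chosen after the data were seen. HSPA2 and HSPA1A are among these 9 and reached 10 FPKM only in treated cells. This comparison uses the same treated values as that against control and has no test in the files. The 10 genes were HSPA2, HSPA1A, HSPA8, HSPA1B, DNAJA4, DNAJB1, CHORDC1, HSP90AA1, HSPH1 and DNAJA1, with recovery levels 0.110 to 0.445 times those of treated cells. By sign alone, 33 of the 38 chaperones were lower in recovery than in treated cells, beside 6405 of the 12712 genes whose mean reached 0.5 FPKM. Lower were 7 of 9 HSP70 genes, all 9 HSP40 genes, 2 of 2 HSP90 genes and 2 of 2 small heat shock proteins. So were 4 of 5 chaperonin subunits, all 9 co-chaperones and 0 of 2 heat shock factors. Most differences were less than 2-fold and some were very small, with BAG1 at 0.907 and ST13 at 0.982 times the treated level. The gene at least 2-fold higher was HSPA13, at 2.22 times its treated level. The median log2 difference of recovery from treated was -0.26 for the chaperones and -0.01 for all genes.

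The promoters were compared with those of all genes. A window was found for 40 of the 44 chaperone genes (56 windows, since some genes have several starts). A 2-unit element was present in at least 1 window of 21 of these 40 genes (52.5%), and in 4417 of 27305 genes overall (16.2%). A 3-unit element was present in 7 of the 40 (17.5%), namely CHORDC1, DNAJA1, DNAJB6, HSP90AA1, HSP90AB1, HSPA8 and HSPD1, and in 166 of 27305 genes (0.608%). Counted by window, 22 of the 56 chaperone windows (39.3%) held a 2-unit and 7 (12.5%) a 3-unit element. The same shares of all 35116 promoters were 13.5% and 0.490%. Among chaperones with both a level and a window, a 2-unit element was present in 6 of the 10 that were at least 2-fold higher in treated cells (60.0%) and in 13 of the other 25 (52.0%). A 3-unit element was present in 3 of those 10 (30.0%) and in 3 of the other 25 (12.0%), and neither difference was tested. HSPA2, BAG1, HSPH1 and DNAJB2 were at least 2-fold higher without any match in these windows. A match is a description of letters, and its absence says only that these letters are not in the window.

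**Figure D4:**
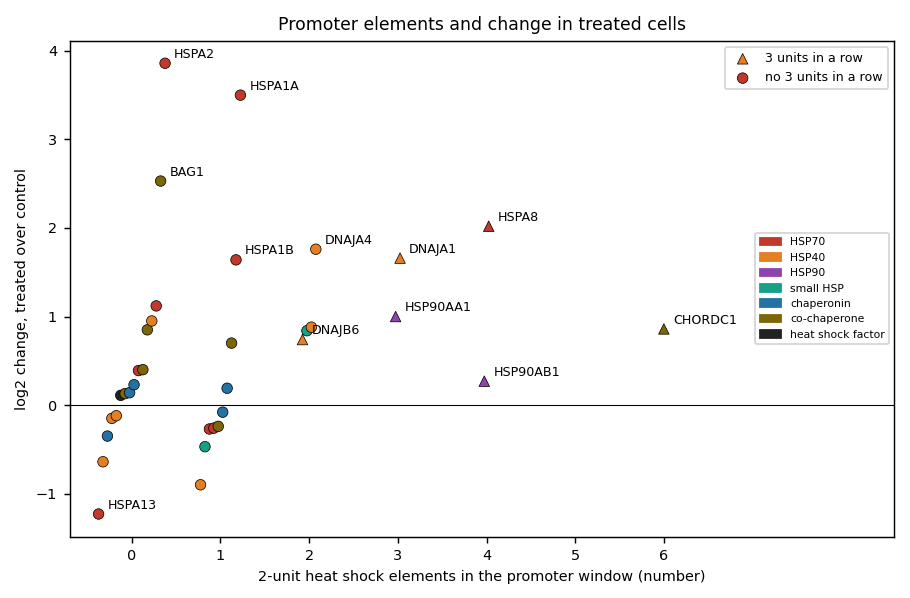
Difference of log2(FPKM + 1), treated over control (vertical), against the largest number of 2-unit heat shock elements in a promoter window of the gene (horizontal, points spread sideways), for the 35 chaperones with both, coloured by class. Triangles mark genes with a 3-unit element; the 6 triangles lie between 0.27 (HSP90AB1) and 2.02 (HSPA8), while genes without an element range from -1.23 (HSPA13) to 3.86 (HSPA2).

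A mark for altered DNA methylation stands beside some genes in the authors' deposited table, and its basis is unstated. It was on 0 of the 38 chaperones and on 14.1% of all 20220 genes. At 10 FPKM or more in control, it was on 0 of 32 chaperones and on 7.59% of 6216 genes. Whether a count of 0 in so short a list differs from these shares was not tested. The windows of the chaperones held a median of 23.0 CpG sites in 300 bases, against 14.0 for all promoters. The authors' other mark, which reads high expression, was on 21 of the 38 chaperones (55.3%), against 12.8% of all genes. At 10 FPKM or more in control, it was on 21 of 32 chaperones (65.6%), against 32.5% of all genes.

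A wider list of the chaperone network was chosen by function, also with earlier results known: other J-domain proteins, prefoldin, HSP90 partners and mitochondrial proteases among them. Of 79 such genes with an entry, 0 were called in treated cells and 0 in recovery at q under 0.05 in the authors' deposited table, where 66 and 67 of them had q under 1. Among all genes with q under 1, 1.08% were called higher and 0.275% lower in treated cells, and 0.895% and 0.447% in recovery. With shares this low, a count of 0 does not set this list apart from all genes. Over the 71 genes whose mean reached 0.5 FPKM, 37 were higher and 34 lower in treated than in control cells, with a median log2 change of 0.05. The 5 with the highest log2 change among those whose mean reached 5 FPKM were CDC37L1 (8.05 FPKM in treated, 11.2 in recovery and 2.72 in control cells), the HSP70 relative HSPA12A (8.78, 4.06 and 3.55 FPKM in the same order), TSC1 (12.4, 12.0 and 6.27 FPKM), the myosin chaperone UNC45A (15.1, 18.9 and 8.56 FPKM) and DNLZ (38.3, 13.5 and 22.8 FPKM). The 5 lowest were DNAJC12, a co-chaperone of aromatic amino acid hydroxylases (3.33 FPKM in treated, 15.4 in recovery and 27.0 in control cells), DNAJB14 (7.69, 15.7 and 26.6 FPKM), SIL1, an exchange factor of the endoplasmic reticulum (9.07, 20.2 and 26.6 FPKM), HSBP1L1 (9.44, 17.6 and 22.9 FPKM) and the prefoldin subunit PFDN4 (48.2, 65.7 and 111 FPKM). At 1 FPKM or more in either group, 6 of 70 genes of this list (8.57%) were at least 2-fold higher in treated than in control cells and 7 (10.0%) at least 2-fold lower, beside the 17.6% and 11.4% of all genes. At 10 FPKM or more, 0 of 52 were at least 2-fold higher and 6 (11.5%) at least 2-fold lower, beside the 7.53% and 7.50% of all genes.

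The 6 chaperone genes without an entry of their own were HSPA14, TRAP1, HSPD1, HSPE1, TCP1 and CCT3. Why they have none is not given in the sources used here. For HSPA14, HSPD1 and HSPE1 no overlapping gene with a matched entry was found. In the RefSeq gene order of GRCh38.p14, TRAP1 overlaps DNASE1, TCP1 overlaps ACAT2 and CCT3 overlaps TSACC. The entries of DNASE1, ACAT2 and TSACC span 1.20, 1.73 and 3.93 times the length of the gene they are named for. Those entries were not taken as values of the chaperones. RNA levels of the 6 genes, among them the mitochondrial chaperonin (HSPD1 and HSPE1) and the mitochondrial HSP90 (TRAP1), were not analysed here.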

How the data were processed

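RNA sequencing was done on 5 libraries of HEK 293T cells, from total RNA depleted of ribosomal RNA and made into directional libraries, per the labels' protocols. Cufflinks and Cuffdiff were used, per the submitters' processing notes, which name hg19 and mm9; the coordinates are taken as hg19. The sources used here do not give the aligner, annotation release, settings or use of strand. Each gene had 1 deposited FPKM value for every group, per the file headers, and the authors added a q-value for treated and for recovery against control, with a call wherever it lay under 0.05. Per the labels, cultures were in triplicate, but no library is tied to a culture. Of 20221 entries 1 with shifted cells was left out. The number of value columns without a group was 0.

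Symbols came from NCBI's RefSeq gene table (GRCh38.p14, names and neighbours only); 19665 entries matched. No test per gene was added. Log2 changes used a pseudocount of 1 FPKM, which understates the change of low genes, and medians took genes whose mean reached 0.5 FPKM. Values are given for members that were called, at least 2-fold apart between any groups with 5 FPKM or more in 1 of them, or most abundant in their class, and for HSPA1A; most others are given by range. The counting functions were tested on simulated data. The members and lists were chosen with earlier results of these data known. Alternatives were other folds, thresholds, pseudocounts, level filters and scalings. Python 3.11.15, pandas 2.3.3 and numpy 2.4.6 were used. The lncRNA table was not used here.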

Additional observations from a re-analysis of the deposited data

How the results depend on the processing

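No paired analysis was possible because the deposited values combine the libraries of each group, and for the same reason no library could be left out. Without HSPA1A and HSPA1B, the chaperones called higher in treated cells numbered 1, DNAJA1. With calls at q under 0.10 they numbered 3, HSPA8 being added, and the other counts of calls stayed at 0. The share of all genes called at that threshold was not counted, so the rise has no comparison. At a fold of 1.5, 16 chaperones were higher and 3 lower in treated than in control cells (42.1% and 7.89%, beside 26.0% and 21.8% of all genes), and 3 had lower recovery levels (7.89%, beside 19.4% of all genes). At 10 FPKM or more in either group, an alternative chosen after the data were seen, 1 chaperone was at least 2-fold higher in recovery than in control, HSF2. That is 3.12% of 32 chaperones, beside 6.93% of 6952 genes. At the same level 1 chaperone (3.12%) was at least 2-fold lower in recovery than in control, beside 4.79% of all genes. Neither difference was tested. With quantile scaling 2 were at least 2-fold lower in recovery, and the share of all genes was not counted there. Under the other alternatives counts stayed within 1.5 times the reported count and medians within 0.1. The median of all genes moved by at most 0.01 between groups. In treated cells no chaperone changed sign against control under median or quantile scaling. In recovery, quantile scaling turned CCT7 to -0.05 and CCT5 to -0.02, against 0.12 and 0.08 as deposited, and BAG3 to just below 0, against 0.02. Quantile scaling also brought BAG1 to 2.10 in treated cells and 1.95 in recovery, against 2.53 and 2.41 as deposited.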
